A study of Mus musculus with 2 samples.

Results

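The 10 genes Il1a, Il1b, Il1rn, Il1r1, Il6, Il6ra, Il33, Tnf, Nfkbia and Tnfaip3 encode cytokines of the interleukin-1, interleukin-6 and tumour necrosis factor families, receptors and an antagonist for them, and 2 inhibitors that switch their signal off. They were taken by symbol from the gene annotation of the authors' deposited table, which gave 1 probe for each. Of the 10, 8 were tested among 30870 features, and the other 2, Il1a and Il6, were too dim on most arrays. Transcripts were measured in isolated pancreatic islets of C57BL/6J mice aged 8 weeks, at 3 days from an operation that either took out 60% of the organ (pancreatectomy) or was a sham. Each group had 4 one-colour arrays, called replicates 1 to 4. The labels do not say that they came from separate animals, so p-values reflect the spread among the arrays alone, and this can be technical.

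Interleukin-1, interleukin-6 and tumour necrosis factor are released at sites of injury, mostly by macrophages, neutrophils and activated stromal cells, and interleukin-33 is held in the nucleus of stromal, epithelial and endothelial cells and let go when they are damaged. The receptors of interleukin-1, interleukin-33 and tumour necrosis factor lead to NF-kB, a transcription factor held in the cytoplasm by IkB proteins until the IkB kinase marks these for destruction, while the interleukin-6 receptor acts through JAK kinases and STAT3. NF-kB also induces its own brakes, among them IkBα (Nfkbia) and the ubiquitin-editing enzyme A20 (Tnfaip3). In islets, interleukin-1β is known to impair insulin secretion from beta cells.

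NF-kB binds the kappaB motif of 10 bases, which was searched on both strands from 250 bases before to 50 bases after each RefSeq gene start (GRCm38.p6). Of all 27025 genes with such a sequence, 5.14% held it in at least 1, and all 10 genes were matched. The motif was found for 4 of them, Il6, Nfkbia, Tnfaip3 and Il1r1, in 4 of 15 start regions. These windows are shown because they carry the letters that the pathway's factor reads at one of its cytokine targets and at both of its inhibitors. Capitals mark the match, and each window reads 5′ to 3′ on the gene's strand.
Il6, chr5:30013060-30013089, plus strand: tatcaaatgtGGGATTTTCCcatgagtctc
Nfkbia, chr12:55492657-55492686, minus strand: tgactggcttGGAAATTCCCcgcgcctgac
Tnfaip3, chr10:19015516-19015545, minus strand: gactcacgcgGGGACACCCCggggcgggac
Tnfaip3, chr10:19015403-19015432, minus strand: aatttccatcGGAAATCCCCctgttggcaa
Il1r1, chr1:40266344-40266373, plus strand: cagggattttGGAATGCCCCcaaggagatg
The match lay at bases -44 to -35 from the start for Il6 and at -29 to -20 for Nfkbia. Tnfaip3 had 2 matches, at -125 to -116 and at -12 to -3, and Il1r1 had 1 at 1 of its 2 start regions, at -232 to -223. A match is a description of the letters and not a bound site, and no match says only that these letters are not in this window.

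None of the 8 tested genes passed an adjusted p of 0.05 in limma with Benjamini-Hochberg adjustment over all features, and 0 of 8 had an unadjusted p under 0.05, against 10.5% of all features. Over all features, 0.632% passed (195 of 30870, 169 higher and 26 lower). The adjusted p ran from 0.518 for Il33 to 0.995 for Il6ra. Of the 8 changes, pancreatectomy minus sham on the log2 scale, 7 were positive and 1 negative, with a median of 0.19 against -0.037 over all features. In 0 of 8 genes were the groups free of overlap, against 8.29% of all features, and 1 of 8 (Il33) had a mean change of at least 2-fold, against 3.59%. Some of these genes differed widely between arrays of the pancreatectomy group, with high Il6, Il33 and Tnf on replicates 1 and 3. By SD among the pancreatectomy arrays, 0.444% of all features varied more than Il33 and 2.78% more than Tnf. Most macrophage and fibroblast markers given below were also high on replicates 1 and 3.

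**Figure D1:**
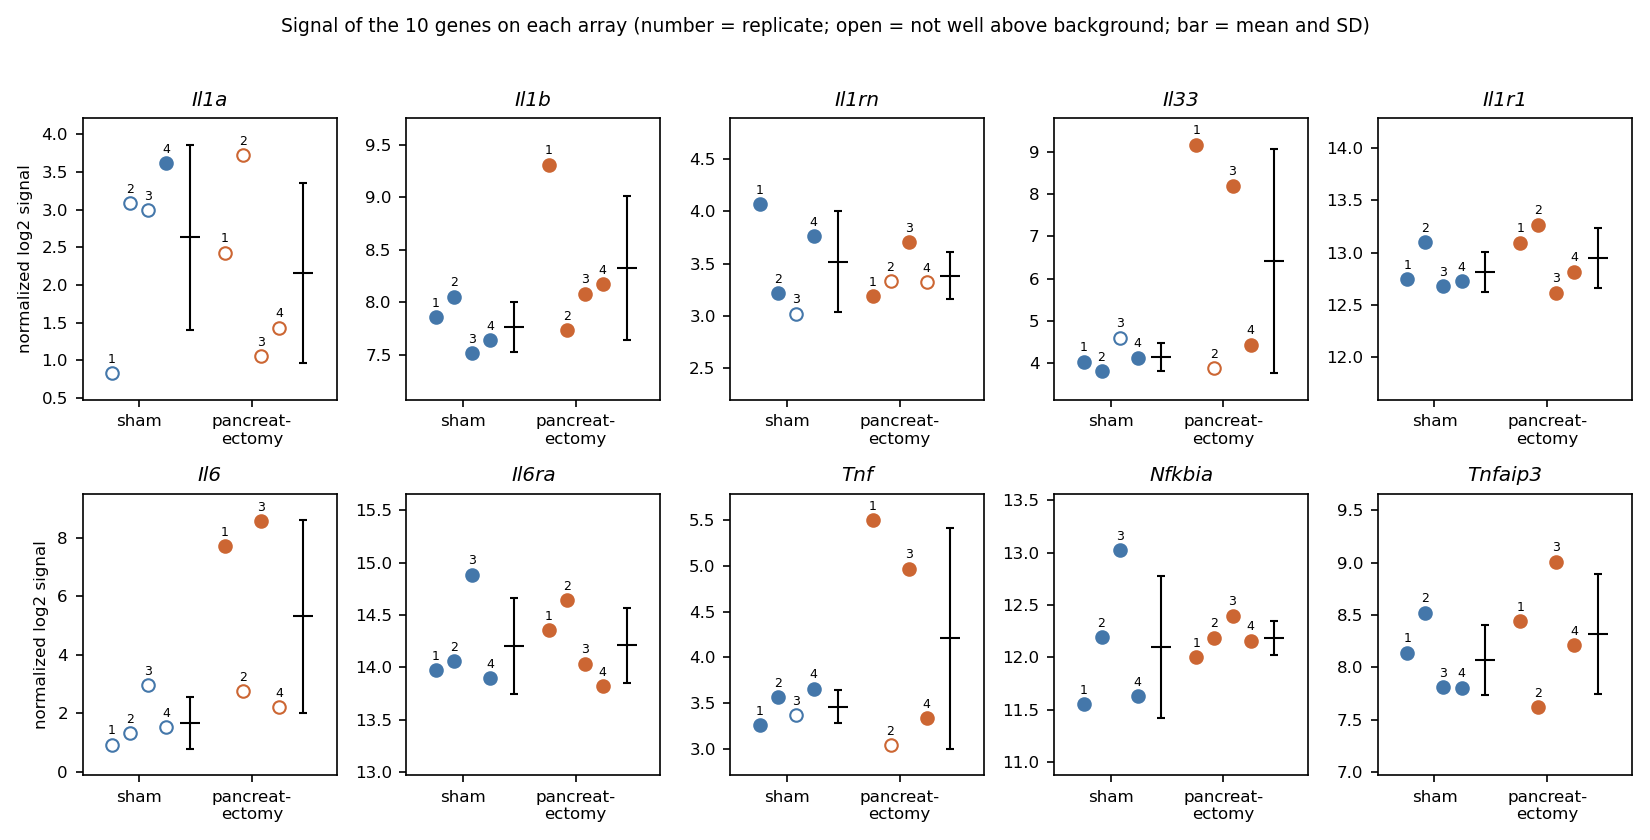
Normalized log2 signal (y axis) of each of the 10 genes on the 4 sham and 4 pancreatectomy arrays, with the replicate number above each point, open points where the probe was not well above background, and bars for the mean and SD of 4 arrays. Il6, Il33 and Tnf are high on pancreatectomy replicates 1 and 3 and lie at or near the sham arrays on replicates 2 and 4.

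The arrays differed in brightness and in the signals of cell type markers. Before scaling, the 75th percentile of the processed signal ran from 178 to 655 on sham arrays and from 280 to 640 on pancreatectomy arrays, with sham replicate 3 lowest, and from 48.1% to 71.4% of probes were well above background. The lowest normalized log2 signal called well above background was 4.30 on sham replicate 3 and 1.70 to 2.70 on the other 7 arrays, so dim genes have only an upper bound there. All 10 beta-cell markers looked at were measured, and their mean log2 signal was 15.09 to 15.69 on sham and 14.71 to 15.23 on pancreatectomy arrays. Macrophage markers were measured for 18 of 19 genes, with a list mean of 8.31 to 8.79 on sham arrays and of 10.33, 8.17, 10.07 and 8.88 on pancreatectomy replicates 1 to 4. The list of fibroblast, stellate and pericyte markers, 15 of 15 measured, had 8.56 to 9.20 on sham arrays and 11.35, 8.90, 10.68 and 9.02 on pancreatectomy replicates 1 to 4. B and plasma cell markers had 9.89 on pancreatectomy replicate 3 and 4.90 to 5.52 on the other 7 arrays, and hepatocyte markers had 10.99 to 11.81 on sham replicate 4 and pancreatectomy replicates 1 and 4 and 5.93 to 7.79 on the other 5. In whole islets, fewer cells of a type and less RNA per cell cannot be told apart. All 8 arrays lay on 1 slide, with sham in columns 1 and 2 and pancreatectomy in columns 3 and 4, so slide column and group cannot be told apart.

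Among the ligands, Il33 had the largest mean change of the tested genes. Its probe (NM_001164724, chr19:30035101-30035160, mm9) had a normalized log2 signal of 4.02, 3.81, 4.60 and 4.12 in the sham group and of 9.18, 3.87, 8.20 and 4.43 in the pancreatectomy group, in the order of replicates 1 to 4 as in all lists that follow. Pancreatectomy replicates 1 and 3 lay far above every sham array, at 33.0-fold and 16.7-fold the sham mean, while replicates 2 and 4 lay within the sham range. The probe was well above background on 3 of 4 arrays in each group. On sham replicate 3 and pancreatectomy replicate 2 it was not, so these values are only upper bounds. The group levels were 4.14 ± 0.33 (SD, n = 4) in sham and 6.42 ± 2.66 (n = 4) after pancreatectomy, a change of 2.28 ± 1.11 (SE, limma adjusted p = 0.518, 95% interval -0.24 to 4.81). Only 137 of 30870 features (0.444%) varied more than Il33 among the pancreatectomy arrays by SD. Without pancreatectomy replicates 1 and 3 the change was 0.013 (adjusted p = 0.996), and with 1 array left out it ran from 1.36 (without pancreatectomy replicate 1) to 3.13 (without pancreatectomy replicate 2; adjusted p = 0.322).

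Il1b, which encodes interleukin-1β, showed a smaller difference with a different array pattern. Its probe (NM_008361, chr2:129190347-129190406, mm9) read 7.86, 8.05, 7.51 and 7.64 in the sham group and 9.31, 7.73, 8.08 and 8.17 in the pancreatectomy group. Replicate 1 stood above all other arrays, replicates 3 and 4 were just above the highest sham array, and replicate 2 was inside the sham range. The change was 0.56 ± 0.32 (SE, limma adjusted p = 0.587, 95% interval -0.17 to 1.29), from 7.76 ± 0.24 to 8.32 ± 0.69 (SD, n = 4 each). It was 0.23 without pancreatectomy replicate 1, 0.76 without replicate 2 (adjusted p = 0.427) and 0.19 without replicates 1 and 3. By slide row, with 2 arrays against 2 in each, the differences in Il1b were 0.57 and 0.55.

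Il1a, the other interleukin-1 ligand, was well above background only on sham replicate 4, at a log2 signal of 3.62 (NM_010554, chr2:129125994-129126053, mm9). It was not well above background on any pancreatectomy array, and no fold is given. Il1rn encodes the interleukin-1 receptor antagonist, which occupies the receptor without signalling. Its probe (NM_001039701, chr2:24205094-24205153, mm9) read 4.07, 3.22, 3.02 and 3.76 on sham and 3.19, 3.33, 3.71 and 3.32 on pancreatectomy replicates 1 to 4. The groups overlapped fully, with a difference of -0.13 ± 0.25 (SE, adjusted p = 0.871), and 5 of the 8 arrays were well above background. Il1r1, the signalling receptor of interleukin-1 (NM_008362, chr1:40372667-40372726, mm9), read 12.75, 13.10, 12.68 and 12.73 on sham and 13.09, 13.27, 12.62 and 12.82 on pancreatectomy arrays. It was far above background on all 8 arrays, and its difference of 0.14 ± 0.18 (adjusted p = 0.821) had a 95% interval of -0.28 to 0.55. On pancreatectomy replicates 1 and 3, where Il33 was high, Il1r1 was the third highest and the lowest of all arrays.

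Other genes of the interleukin-1 family were sparse on these arrays, with 6 of 13 probed ligands and receptors measured and 0 past the threshold. Their median change was 0.17. Il1r2, a decoy receptor that binds interleukin-1 without signalling, had 0.21 ± 0.28, the co-receptor Il1rap 0.14 ± 0.20, and Il1rl1, the receptor of interleukin-33, 0.31 ± 0.24. Sigirr, an inhibitory member of the receptor family, had -0.32 ± 0.19, and Il18bp, which neutralizes interleukin-18, 0.28 ± 0.20. Of 16 measured genes of interleukin-1 processing and receptor signalling, 0 passed and the median was -0.016. Nlrp3, the sensor of an inflammasome that activates caspase-1, read 6.85, 6.97, 6.62 and 6.12 on sham and 7.27, 8.04, 7.68 and 7.77 on pancreatectomy replicates 1 to 4. All 4 pancreatectomy arrays lay above all 4 sham arrays, with replicate 2 highest, and the change of 1.05 ± 0.24 did not pass (adjusted p = 0.136). Irak3, an inhibitory kinase of the pathway, had 0.71 ± 0.19 (adjusted p = 0.238), again without overlap, and was the 1 gene of the pathway lists that passed with array weights. Casp1, caspase-1, had 0.69 ± 0.52, with its highest values of 7.80 and 8.90 on pancreatectomy replicates 1 and 3.

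**Figure D2:**
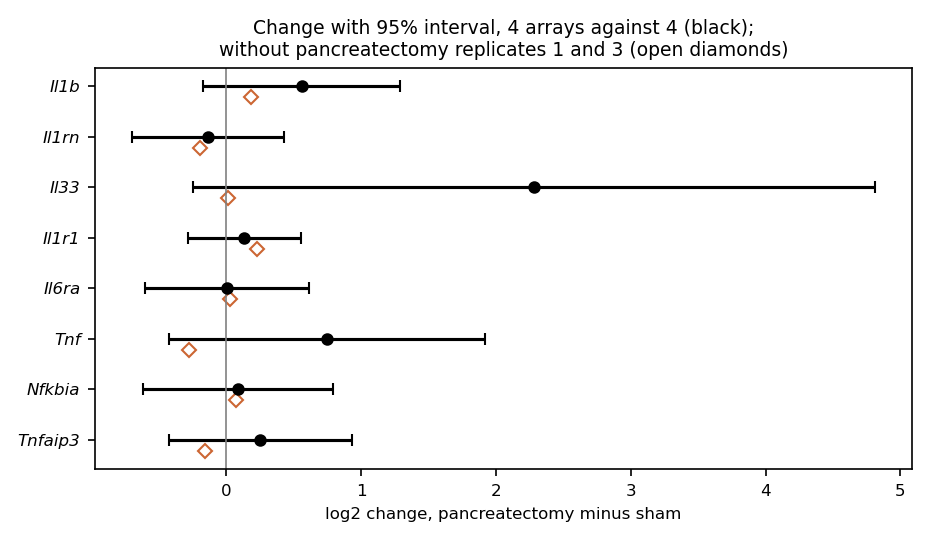
Log2 change, pancreatectomy minus sham (x axis), of the 8 tested genes, with black points and 95% intervals from limma over 4 arrays against 4 and open diamonds for the change without pancreatectomy replicates 1 and 3. All 8 intervals include 0, and the change of Il33 moves from 2.28 to 0.013 when those 2 arrays are left out.

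Il6, which encodes interleukin-6, differed most between arrays. Its probe (NM_031168, chr5:30346367-30346426, mm9) had a normalized log2 signal of 0.92, 1.32, 2.95 and 1.52 in the sham group and of 7.71, 2.75, 8.56 and 2.20 in the pancreatectomy group. It was well above background on pancreatectomy replicates 1 and 3 and on no other array. Before scaling, the processed signal was 309 and 458 on those arrays and 2.46 to 4.72 on the other 6. No fold between the groups is given, because the signals of pancreatectomy replicates 2 and 4 and of all 4 sham arrays are only upper bounds. The measured means were 5.31 ± 3.29 (SD, n = 4) and 1.68 ± 0.89 (n = 4). An exact permutation test over the measured signals of the 8 arrays, 6 of them not well above background, gave a two-sided p of 0.0857. The smallest possible is 0.0286. This test cannot decide whether Il6 differed between the groups, because those 6 signals are only upper bounds. Among them, sham replicate 3 (2.95) lay above pancreatectomy replicates 2 (2.75) and 4 (2.20). The same permutation test was run on every gene of the set. The p of Il6 was the smallest, followed by 0.143 for Il1b, 0.229 for Il33 and 0.4 for Tnf. With no filter on dim probes, limma gave 3.63 ± 1.47 (SE, adjusted p = 0.678), which rests on the same signals. Without pancreatectomy replicates 1 and 3 the measured difference was 0.80, with every array left below background.

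Il6ra, the receptor subunit that binds interleukin-6, showed no such pattern. Its probe (NM_010559, chr3:89674054-89674113, mm9) read 13.97, 14.06, 14.89 and 13.90 on sham and 14.35, 14.64, 14.04 and 13.82 on pancreatectomy replicates 1 to 4. Sham replicate 3 was highest and the other arrays overlapped, with a difference of 0.0079 ± 0.27 (SE, adjusted p = 0.995, 95% interval -0.60 to 0.61). Of 23 measured genes of the interleukin-6 family and its signalling, 0 passed, 11 were positive and 12 negative, and the median was -0.12. Il6st, the shared signalling subunit gp130, had -0.26 ± 0.18 and Stat3, its transcription factor, -0.22 ± 0.17. Socs3, a feedback inhibitor that STAT3 induces, had 0.64 ± 0.38 (adjusted p = 0.592), with 11.12 on pancreatectomy replicate 1, 9.97 to 10.29 on replicates 2 to 4 and 9.13 to 10.55 on sham arrays. The largest change of the list was in Lif, leukaemia inhibitory factor, at 0.71 ± 0.38, followed by that of Socs3. Lif was well above background on 2 of 4 sham and 4 of 4 pancreatectomy arrays, so its change rests partly on upper bounds.

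Tnf, which encodes tumour necrosis factor, followed the array order of Il33. Its probe (NM_013693, chr17:35336795-35336854, mm9) read 3.26, 3.57, 3.37 and 3.66 on sham and 5.50, 3.04, 4.97 and 3.34 on pancreatectomy replicates 1 to 4. Replicates 1 and 3 were 4.10-fold and 2.84-fold the sham mean, replicate 4 was within the sham range and replicate 2 below it. The probe was well above background on 3 of 4 arrays in each group. On sham replicate 3 and pancreatectomy replicate 2 it was not, so these values are only upper bounds and the folds rest partly on one. The change was 0.75 ± 0.52 (SE, limma adjusted p = 0.643, 95% interval -0.42 to 1.92), from 3.46 ± 0.18 to 4.21 ± 1.21 (SD, n = 4 each), and it turned to -0.27 without replicates 1 and 3. Leaving out pancreatectomy replicate 1 alone gave 0.32, leaving out replicate 3 gave 0.50, and leaving out replicate 2 gave 1.14 (adjusted p = 0.417). Without replicate 2, 3 of the 8 genes (Il33, Tnf and Il1b) had an unadjusted p under 0.05 and 0 passed the adjusted threshold.

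Of 20 measured genes of TNF receptors and signalling, 0 passed, and the median was -0.012. Tnfrsf1a, the widely expressed receptor, had 0.020 ± 0.16. Tnfrsf1b, the receptor found mainly on blood and endothelial cells, had 1.21 ± 0.51 (adjusted p = 0.455), with 6.22 and 5.93 on pancreatectomy replicates 1 and 3, 4.34 and 4.21 on replicates 2 and 4 and 3.43 to 4.68 on sham arrays. Ripk3, the kinase of necroptosis, had 2.08 ± 0.79 (adjusted p = 0.412), with 8.35 and 8.37 on pancreatectomy replicates 1 and 3 and at most 5.59 on every other array. Ltb, lymphotoxin beta, which lymphocytes make, had 2.33 ± 1.44 and read 12.16 on pancreatectomy replicate 3, the array with the high B and plasma cell markers, against at most 6.57 elsewhere.

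The 2 inhibitors of NF-kB did not share the pattern of Il6, Il33 and Tnf to the degree that these shared it with each other. Nfkbia (NM_010907, probe over chr12:56590945-56591440, mm9, a span longer than the probe) read 11.55, 12.19, 13.02 and 11.63 on sham and 12.00, 12.19, 12.40 and 12.16 on pancreatectomy replicates 1 to 4. The pancreatectomy arrays lay close together inside the sham range, and the difference was 0.089 ± 0.31 (SE, adjusted p = 0.936, 95% interval -0.62 to 0.79). Sham replicate 3, the dimmest array, set the top of that range. Without it the difference was 0.40 ± 0.19 (SE, limma adjusted p = 0.391). Tnfaip3 (NM_009397, chr10:18720776-18720835, mm9) read 8.14, 8.52, 7.81 and 7.81 on sham and 8.44, 7.62, 9.01 and 8.21 on pancreatectomy arrays. Replicate 3 was above and replicate 2 below every sham array, and the difference was 0.25 ± 0.30 (SE, adjusted p = 0.794, 95% interval -0.43 to 0.93). By slide row Tnfaip3 went in opposite directions, with -0.30 in the first row and 0.80 in the second, and it had -0.15 without pancreatectomy replicates 1 and 3. With 1 array left out it ran from 0.022 (without pancreatectomy replicate 3) to 0.48 (without replicate 2).

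Of 10 measured NF-kB subunits and IkB kinase genes, 0 passed, 8 changes were negative and the median was -0.16. Nfkb1 had -0.16 ± 0.17, Rela -0.30 ± 0.15 and Relb -0.24 ± 0.21, and the largest change, that of the kinase Tbk1, was -0.37 ± 0.16 (adjusted p = 0.461). Of 16 other inhibitors and feedback genes, 0 passed, and the median was 0.049. Tnip1, a partner of A20, had -0.29 ± 0.18, while the IkB-like genes Nfkbiz and Bcl3 had 0.087 ± 0.25 and -0.054 ± 0.26. Zfp36, which speeds the decay of cytokine mRNAs such as that of Tnf, had 0.77 ± 0.31 (adjusted p = 0.438), highest on pancreatectomy replicate 3 (7.77) and next on replicate 1, with 5.97 to 6.88 on the other 6 arrays. Dusp1, a phosphatase of MAP kinases, had 0.55 ± 0.33 and Zc3h12a, a ribonuclease of cytokine mRNAs, 0.53 ± 0.60.

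Of 13 measured NF-kB target genes, 0 passed, 10 were positive and the median was 0.67. These values include Saa3 and are a description only. Saa3, an acute-phase protein, was well above background on 1 of 4 sham and 3 of 4 pancreatectomy arrays, so it was tested only through the group where it is high and no change is given. Its log2 signal was 9.55, 2.77, 12.23 and 5.71 on pancreatectomy replicates 1 to 4 and 0.90 to 4.27 on sham arrays. Lcn2, lipocalin 2, had 2.71 ± 0.83 (adjusted p = 0.304), with 12.33, 7.76, 10.08 and 8.89 on pancreatectomy replicates 1 to 4, all above the sham range of 6.58 to 7.61. The neutrophil chemokine gene Cxcl1 had 2.42 ± 1.18 (adjusted p = 0.519), with 7.60, 2.63, 8.70 and 4.40 on pancreatectomy replicates 1 to 4 and 2.93 to 3.85 on sham arrays. The monocyte chemokine gene Ccl2 had 1.82 ± 1.02, with 9.05 and 9.54 on replicates 1 and 3 and 4.74 to 6.05 on the other 6 arrays. Icam1, an adhesion molecule, had 0.082 ± 0.81. Over the 7 lists together, limma passed 0 of 104 genes, with 12 at an unadjusted p under 0.05, against 10.5% of all features. Saa3 is among the 12. In 5 of 104 the groups did not overlap, against 8.29% of all features, namely Nlrp3, Irak3, Tbk1, Lcn2 and, chosen after its values were seen, Vcam1.

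**Figure D3:**
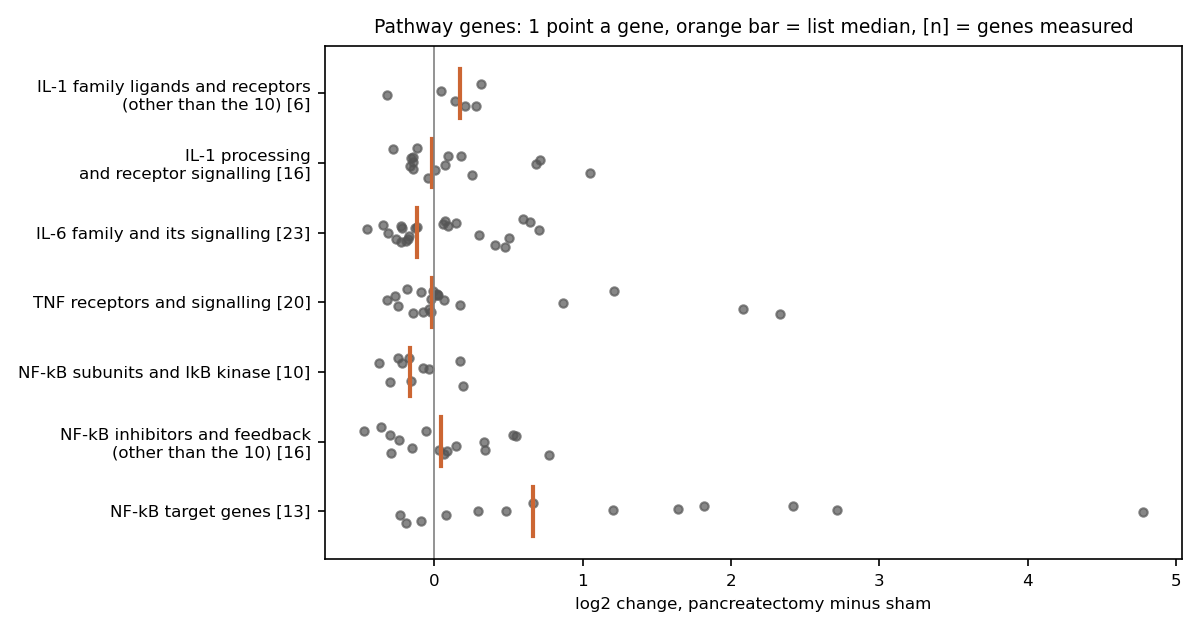
Log2 change, pancreatectomy minus sham (x axis), of the measured genes of 7 pathway lists that do not include the 10 genes, with 1 point for each gene and an orange bar at the list median. The medians lie between -0.16 and 0.67, and none of the 104 genes passed the test. Saa3, tested only through the group where it is high, is among the points and in the median of its list.

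The arrays with high Il6, Il33 and Tnf also had higher signals for most markers of macrophages and fibroblasts. On pancreatectomy replicates 1 and 3, 15 and 14 of the 18 measured macrophage markers lay above every sham array, against 1 and 4 on replicates 2 and 4. Below every sham array lay 1, 9, 1 and 4 of the 18 on replicates 1 to 4. Of the 15 fibroblast, stellate and pericyte markers, 14 and 13 lay above every sham array on replicates 1 and 3, against 1 and 5 on replicates 2 and 4. Lyz2, a lysozyme of macrophages and neutrophils, read 11.28 and 10.71 on pancreatectomy replicates 1 and 3, 5.81 and 6.41 on replicates 2 and 4 and 6.82 ± 0.20 (SD, n = 4) on sham arrays, and Col1a1, a collagen chain, 15.06 and 13.57 on replicates 1 and 3 against 9.20 to 10.65 on the other 6. Cd163 was the 1 macrophage marker not well above background on any array, as were Ngp among the neutrophil, Xcr1 among the dendritic and Ncr1 among the T and NK cell markers. Of the macrophage list 1 gene passed the test, Folr2, a folate receptor of tissue macrophages, at 1.14 ± 0.20 (adjusted p = 0.0488). Folr2 read 9.03, 8.69, 8.60 and 8.41 on pancreatectomy replicates 1 to 4 and 7.14 to 7.81 on sham arrays. It was thus higher on all 4 pancreatectomy arrays and not on replicates 1 and 3 alone. The neutrophil list, 8 of 12 measured, had means of 8.26 and 8.16 on replicates 1 and 3, 7.03 and 7.36 on replicates 2 and 4 and 6.67 to 7.29 on sham arrays. Of these 8 markers, 4 and 5 lay above every sham array on replicates 1 and 3, against 1 and 1 on replicates 2 and 4. Mpo, Elane and Csf3r stayed within the sham range on replicates 1 and 3. Duct markers, 8 of 8 measured, had 8.08, 6.80, 7.76 and 6.85 on pancreatectomy replicates 1 to 4 and 6.86 to 7.57 on sham arrays. Of these 8, 4 lay above and 2 below every sham array on each of replicates 1 and 3. The endothelial list, 14 of 14 measured, had 10.27 and 10.31 on replicates 1 and 3 and 9.67 to 10.06 on the other 6 arrays. Only 6 and 5 of these 14 lay above every sham array on replicates 1 and 3, against 3 and 2 on replicates 2 and 4. The part of these cells in the values of Il6, Il33 and Tnf was not tested.

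Other lists moved with single arrays or hardly at all. T and NK cell markers, 8 of 13 measured, had 9.68 on pancreatectomy replicate 3 and 8.32 to 8.74 on the other 7 arrays, and dendritic cell markers, 6 of 8 measured, 7.42 against 5.52 to 6.28. Gut epithelium markers, 6 of 10 measured, were highest on pancreatectomy replicate 3 and had 6.75 to 7.51 on the other 7 arrays. Of 5 mesothelial markers 1 was measured, with Upk3b and Lrrn4 not well above background on any array, and of 7 mast cell markers 2 were measured, with Cpa3, Cma1, Ms4a2 and Fcer1a not above background on any. The hepatocyte list, 13 of 13 measured, had 11.81, 6.24, 7.79 and 10.99 on pancreatectomy replicates 1 to 4 and 6.31, 5.93, 6.56 and 11.77 on sham arrays, so it was highest on pancreatectomy replicate 1, where Il6, Il33 and Tnf were high too. On pancreatectomy replicate 3 its genes Apoa1 and Apoc3, which encode apolipoproteins, read 9.71 and 9.95, while Alb, albumin, read 4.34 against 14.89 on replicate 1. The part of hepatocyte RNA in these values was not tested. The acinar, alpha, delta, Schwann and erythroid lists had 13, 6, 4, 7 and 4 measured genes, and 0, 0, 0, 2 and 1 of these lay above every sham array on pancreatectomy replicate 1, and 9, 0, 1, 1 and 2 on replicate 3. On pancreatectomy replicates 1 to 4, 7, 4, 6 and 3 of the 10 beta-cell markers lay below every sham array.

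**Figure D4:**
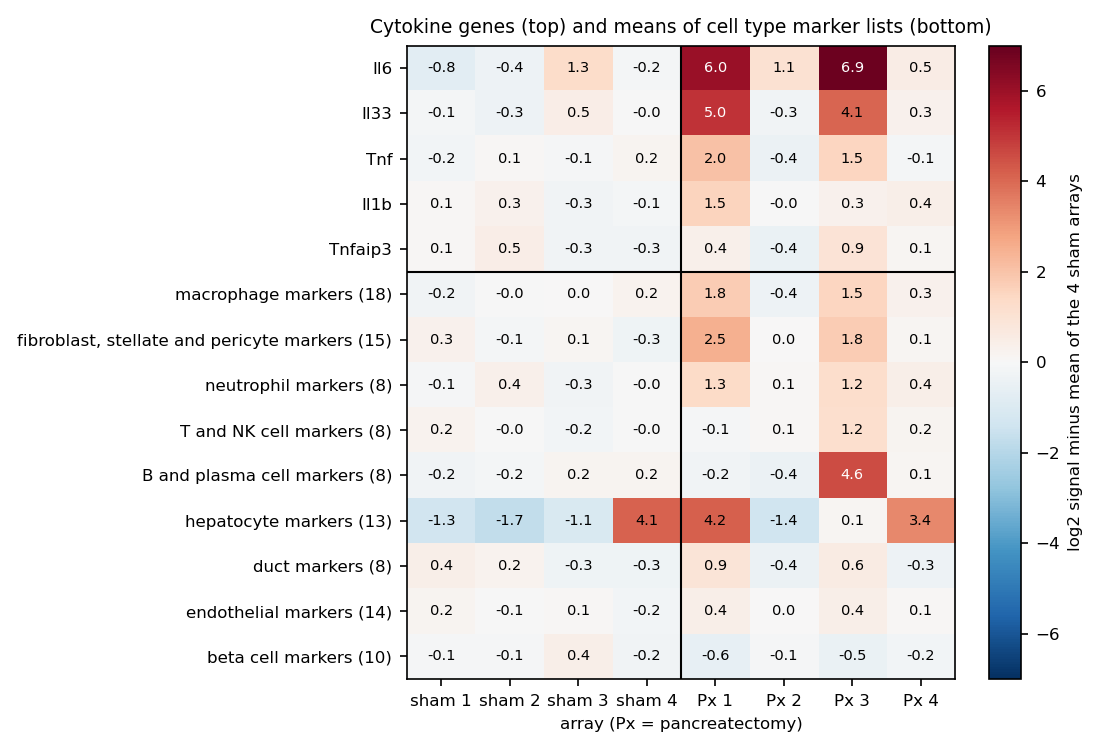
Log2 signal minus the mean of the 4 sham arrays (colour and printed value) on each array (x axis), for 5 of the genes above the line and for the means of 9 marker lists below it, with the number of measured markers in parentheses. Il6, Il33 and Tnf are high on pancreatectomy replicates 1 and 3, where the means of the macrophage, fibroblast and neutrophil lists are high too. The hepatocyte list is high on pancreatectomy replicates 1 and 4 and on sham replicate 4.

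Among 16093 named features, likeness to each tested gene was ranked by Pearson correlation over the 8 arrays, which share 1 slide. For Il33, Tnf and Il1b it rests largely on the few arrays where these are high. Among the closest to Il33 were Zcchc24 (r = 0.997) and Clec4n (0.992), and Clec4n read 9.36 and 8.68 on pancreatectomy replicates 1 and 3 and 6.41 to 6.82 elsewhere. Closest to Tnf were Ms4a6d (0.997), the macrophage marker C1qc (0.991) and Litaf (0.991). Closest to Il1b were Pcolce2 (0.969), Cilp (0.966) and Phlda1 (0.961), each highest on pancreatectomy replicate 1. Il6ra was most like Ell2 (0.981), Mknk1 and Slc6a16, Nfkbia most like Map2k6 (0.967), Rbfox1 and Htra2, and among those most like Tnfaip3 were Rps19 (0.956) and Rnd3. Il1rn was most like Mgl2 (0.936), Kpna4 and Prr5, and Il1r1 most like Lhx1 (0.934), Sgip1 and St3gal5.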

How the data were processed

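Each array's scanner file gives an intensity for each spot, which the authors' scanner software had background-subtracted and detrended within the array. Per the file headers this was Feature Extraction 10.7.3.1, while the submitters' processing notes name version 9.1. The authors' deposited table of the series gives a log2 value averaged over the 4 arrays of a group, which per the file headers came from GeneSpring GX 12.5 after a shift to the 75th percentile. It served for gene symbols and probe positions (mm9). Regressed on the differences used here over 37499 probes, its own had a slope of 0.998, and for these 10 genes it gave 3.63 for Il6 and 2.29 for Il33.

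Here log2 processed signals were shifted to a common 75th percentile per array, outlier spots were left out and spots of 1 probe averaged. Probes well above background on at least 4 of 8 arrays, with at least 3 values a group, were kept. A gene is its brightest kept probe. Groups were compared over 30870 features with limma 3.58.1 in R 4.3.3 (lmFit, eBayes; Benjamini-Hochberg; threshold 0.05), tested on simulated data. The number of arrays limits the precision: the SE of the 8 genes ran from 0.18 to 1.11, against a median of 0.22 over all features. Symbols were updated by Entrez ID (30994 of 33325 probes) with a GRCm38.p6 table used for names.

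The members and all lists were chosen with earlier results of these data known. Named beside the 10 genes are 17 genes of the pathways fixed by name, any list gene that passed, otherwise the 3 of each list with the largest absolute change, and the 3 features most like each tested gene; 3 genes that this rule names are not reported here. Alternatives covered scaling, background, filters, probe summary, slide row, array weights, variance trend and arrays left out.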

Additional observations from a re-analysis of the deposited data

Results flagged for a closer look

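In 20 groups of 4 arrays (10 genes, 2 groups each), 2 single arrays stood apart from the other 3 of their group by Dixon's criterion, which chance meets in about 1 of 20 groups. Il6ra read 14.89 on sham replicate 3 and 13.90 to 14.06 on the other 3 sham arrays. Sham replicate 3 was the dimmest array, and before scaling its Il6ra signal of 12383 was the lowest of the 8 arrays, below 12539 on pancreatectomy replicate 4. With quantile scaling it stayed highest of the 8, at 14.79. Il1r1 read 13.10 on sham replicate 2 and 12.68 to 12.75 on the other 3 sham arrays. The high values of Il6, Il33 and Tnf on pancreatectomy replicates 1 and 3 did not meet the criterion, which looks for 1 array apart from 3.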

How the results depend on the processing

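Of the 8 tested genes, 0 passed in any of the 23 alternatives (Il1rn, Il33 and Tnf have no value with the filter for all 8 arrays). The lowest adjusted p was 0.102, for Il33 with array weights (3.15), and its changes over the alternatives ran from -0.27 to 3.15. Normexp, added after seeing the files since the planned mean signal is not a column there, gave 1.46 for Il33 and a measured difference of 1.39 for Il6. Signs turned for changes near 0 and, in settings with fewer arrays, also for those of Il33, Tnf, Il1b and Tnfaip3. Median scaling lowers every change by the same amount, so a sign it turns says nothing about the gene. Il6ra had -0.094 with median scaling, -0.0032 with normexp and -0.46 in slide row 2. Nfkbia had -0.014 with median scaling and -0.046 in slide row 2. Il1rn had 0.13 with quantile scaling and 0.12 in slide row 2, Il1r1 -0.044 with array weights and Tnfaip3 -0.30 in slide row 1. Without pancreatectomy replicates 1 and 3, Tnf had -0.27 and Tnfaip3 -0.15. With sham replicates 1, 2 and 3 against pancreatectomy replicate 2, a lone array assumed to vary like the others, Il1b had -0.077, Il33 -0.27, Tnf -0.36, Nfkbia -0.068 and Tnfaip3 -0.54. Leaving out 1 array gave -0.30 to 0.051 for Il1rn, -0.13 to 0.23 for Il6ra, -0.093 to 0.40 for Nfkbia and 0.030 to 0.25 for Il1r1. The cause was not tested.

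Counts of all features called moved from 195 to 18 with no scaling (18 higher, 0 lower; median scaling gave 124 and 46 and put the median of all features at -0.14), 60 with normexp, 72 with no filter, 126 with the stricter filter, 125 with the slide row as a block, 769 with array weights, 15 without pancreatectomy replicates 1 and 3, and 59 to 185 with 1 array left out. In limma it was 0 with 1 pancreatectomy array against 3 and within slide rows 1 and 2, with 1649, 2021 and 897 at an unadjusted p under 0.05. Of the pathway genes 1 passed with array weights (Irak3) and 0 otherwise. No paired analysis was possible because the array positions in the labels do not tie sham to pancreatectomy arrays. With 4 arrays a group, the intervals of Il33 and Tnf are wide, and Il1a and Il6 lie at background on most arrays.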
